A study of Homo sapiens with 9 samples.

Results

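The immediate early transcription factor genes described here are FOS, FOSB, JUN, JUNB, JUND, EGR1 and EGR2, together with the nuclear receptor genes NR4A1, NR4A2 and NR4A3. They were taken by gene symbol, as early genes known to respond to MEF2 factors and serum response factor, and they make up 10 of the 62700 genes in the deposited table. RNA-seq was performed on HAL-01, an established B-ALL (B cell acute lymphoblastic leukemia) line with the t(17;19) fusion TCF3::HLF. All cells stably expressed Cas9 and GFP. The guide RNAs sgRNA_96 and sgRNA_97 were aimed at the HLF motif in an enhancer of MEF2C that TCF3::HLF occupies (MEF2C enhancer KO), and the guide SCR1 was a scrambled control. Each guide had 3 libraries, numbered 1, 3 and 4, all from day 13, so the KO group held 6 libraries and the control group 3. Per the study, day 13 counts from transduction, and by then HAL-01 cells with the enhancer guide had partly dropped out of its competitive assay. The model is 1 cell line, the share of edited cells is not given in the sources used here, and no source states whether the replicates were separate cultures, so p-values measure only the spread between these libraries.

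Immediate early genes are transcribed within minutes of a signal, without new protein synthesis, because factors already bound at their promoters are switched on by kinases or calcium. Serum response factor with its ELK and MRTF partners binds CArG boxes, CREB binds cAMP response elements (CRE), and MEF2 factors bind a related A/T-rich element. FOS and JUN proteins pair into the AP-1 factor, EGR proteins are zinc finger factors, and NR4A proteins are orphan nuclear receptors that follow antigen receptor signals in lymphocytes.

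The study lists a pair of guides for the MEF2C enhancer, shown here because they carry the edited motif. Which of them is sgRNA_96 and which sgRNA_97 is not given in the sources used here. The capitals mark the HLF motif, and the sequences are 5′ to 3′.
E.1: tagcaTTACATAAtacatgt
E.2: ttagcaTTACATAAtacatg
E.1 matched the minus strand of hg38 at chr5:88825103-88825122 and was followed by GGG, and E.2 matched at chr5:88825104-88825123 and was followed by TGG. Both sites lie in an intron of MEF2C in GENCODE release 44, and the pair differ in position by 1 base.

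Total counts per library lay between 17439072 and 29777361 in SCR1 and between 15212462 and 20565658 in KO. Mitochondrial genes took 5.97 to 6.35% of them in SCR1 and 6.22 to 7.01% in KO. Expression is given as CPM, counts scaled to a common library size after TMM correction of composition. On a principal component analysis of log2 CPM the first component (26.8% of the variance) separated the SCR1 libraries (scores 18.0 to 21.9) from the KO libraries (-15.3 to -2.8). Along the second component (14.5%) sgRNA_96 replicate 1 (22.4) and sgRNA_97 replicate 1 (-21.2) stood at opposite ends. B lineage genes were abundant in all libraries (summed CPM of 10 markers 4797 to 4979 in SCR1 and 5276 to 5553 in KO). The T cell genes CD3D and CD3E, the neutrophil gene ELANE and all 4 erythroid markers were at 0 in every library. Summed CPM of the 5 T and NK markers was 9.12 to 9.98 in SCR1 and 7.26 to 8.37 in KO, nearly all of it from NKG7, and that of the 5 myeloid markers was 18.7 to 21.5 and 19.4 to 23.98. The 4 stromal markers summed to at most 0.535 CPM. Among the markers, DNTT, RAG1 and MPO rose in KO and NKG7 fell (edgeR, adjusted p under 0.05). DNTT, RAG1 and MPO were also called with either guide alone. NKG7 was called with neither (edgeR, adjusted p = 0.15 with sgRNA_96 and 0.0893 with sgRNA_97). The part of these markers in the results was not tested. In bulk RNA, fewer cells that express a gene and less RNA per cell cannot be told apart.

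To determine whether the early genes responded to loss of the enhancer motif, the KO libraries were compared with SCR1. EGR1, JUN, NR4A1 and FOS fell, and no member rose. All 10 members passed the filter on low counts, and 4 of 10 passed the test (edgeR, adjusted p under 0.05), against a background of 20.7% of the 14436 genes tested, or 10.6% for genes called lower. The estimated log2 fold change was below 0 for 9 of 10 members, as for 49.5% of all genes tested, and its median was -0.65, compared with 0.003 over all genes tested. In EGR1, JUN and NR4A1 each of the 6 KO libraries lay below each of the 3 SCR1 libraries, a pattern that held for 10.2% of all genes tested. The members were chosen with earlier results of these data known, so the comparisons with the background are only a description. EGR1 and JUN carried the firmest calls, while those of NR4A1 and FOS depended on single libraries and on the form of the test, as described with each gene.

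**Figure D1:**
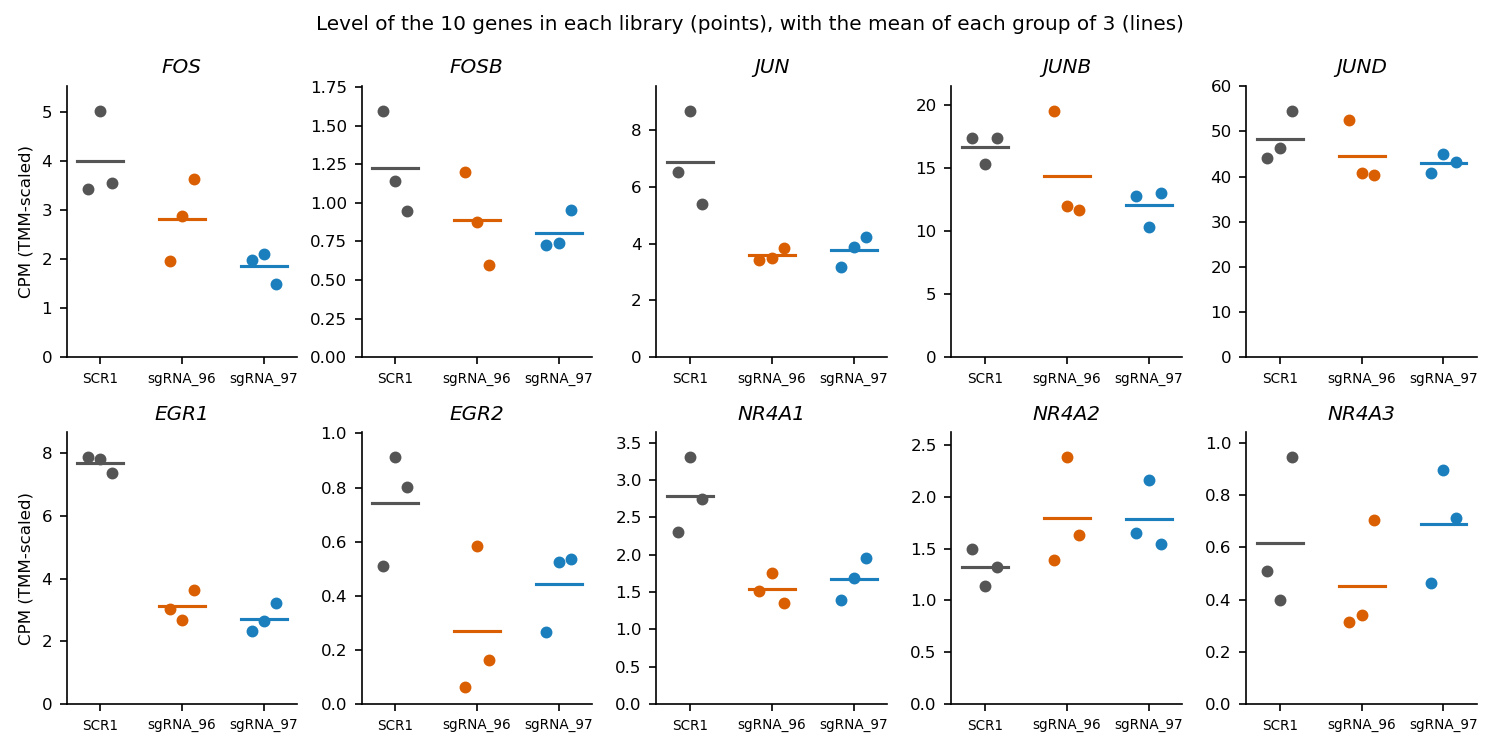
CPM (TMM-scaled, linear axes from 0) of each of the 10 genes in the 9 libraries. Points are libraries, drawn from left to right as replicates 1, 3 and 4, and lines are the means of 3 libraries. EGR1, JUN and NR4A1 show no overlap between SCR1 and either guide, and JUNB in sgRNA_96 replicate 1 (19.5) stands above all the other JUNB values.

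EGR1 encodes a zinc finger factor that is induced by growth factor and antigen receptor signals. The gene (ENSG00000120738.8) lies at chr5:138465479-138469303 on the plus strand and has a single annotated transcript, so its count does not depend on how reads were divided among isoforms. EGR1 measured 7.88, 7.81 and 7.37 CPM in SCR1 replicates 1, 3 and 4. With sgRNA_96 it measured 3.03, 2.68 and 3.63, and with sgRNA_97 it measured 2.32, 2.63 and 3.21. The groups did not overlap, and the highest KO library was below the lowest control library by a wide margin compared with the spread in either group. Mean CPM was 7.69 ± 0.273 (SD, n = 3) in SCR1 and 2.92 ± 0.472 (SD, n = 6) in KO, which is 37.9% of control. The log2 fold change was -1.40 (SE 0.15, adjusted p = 1.14e-05, edgeR). EGR1 had the 29th lowest log2 fold change of the 14436 genes tested. It was called lower in all 18 other settings tried, with adjusted p between 4.32e-13 and 0.00854. These values rest on 35 to 232 counts per library.

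EGR2 (ENSG00000122877.18, chr10:62811996-62819167, minus strand), a zinc finger paralog of EGR1, was close to the detection limit. It had 15, 16 and 17 counts in the SCR1 libraries and 1 to 17 counts over all libraries, which gave 0.509, 0.912 and 0.804 CPM in SCR1. The KO libraries ranged from 0.0631 to 0.584 CPM with a median of 0.396, and 3 of 6 lay below every SCR1 library. The lowest value was a single count in sgRNA_96 replicate 1. The log2 fold change was -0.99 (SE 0.49, adjusted p = 0.167), so a difference was not detectable at this depth.

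The EGR1 promoter is shown because EGR1 changed most and because its window held the most motif matches among the members. Sequences are from RefSeq on GRCh38.p14, in the direction of transcription, and lie within the 250 bases before an annotated start. Capitals mark the motif matches.
EGR1: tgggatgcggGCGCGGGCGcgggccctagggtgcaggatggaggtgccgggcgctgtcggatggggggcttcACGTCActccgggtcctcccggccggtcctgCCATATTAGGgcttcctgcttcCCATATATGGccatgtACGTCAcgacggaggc
EGR2: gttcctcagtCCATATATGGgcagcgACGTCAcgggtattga
JUN: acatcatgggCTATTTTTAGgggttgactg
FOS: gttgagcccgTGACGTttacactcat
FOSB: aaggggcgggTGACGTaagcaggggg
JUND: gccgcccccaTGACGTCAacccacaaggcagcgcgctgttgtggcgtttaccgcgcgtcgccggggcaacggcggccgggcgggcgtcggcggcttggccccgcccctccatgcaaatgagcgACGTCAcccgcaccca
The EGR1 stretch is chr5:138465271-138465427 on the plus strand and holds a pair of CArG boxes at -105 to -96 and -83 to -74 from the start, CRE half-sites on either side of them, and 1 EGR motif at -198 to -190. The EGR2 stretch is chr10:62816406-62816447 on the minus strand, upstream of the third of 3 annotated starts, with 1 CArG box at -71 to -62 and 1 CRE half-site next to it. The JUN stretch is chr1:58784083-58784112 on the minus strand, with 1 MEF2 site at -55 to -46. FOS (chr14:75278754-75278779) and FOSB (chr19:45467926-45467951), both on the plus strand, held a CRE half-site at -64 to -59 and at -60 to -55. JUND (chr19:18281694-18281832, minus strand) held a full CRE, which reads as a pair of overlapping half-sites, and a further half-site at -87 to -82.

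Windows were found for 9 of 10 members, 12 in all, and NR4A2 had none. The CArG box (searched by its consensus) was in 1.16% of the 35116 promoter windows and in those of EGR1 and EGR2. The MEF2 site (likewise by consensus) was in 2.80% of all windows and in that of JUN. The CRE half-site TGACGT was in 7.10% of all windows and in those of 6 members (EGR1, EGR2, FOS, FOSB, JUND and NR4A3). The EGR motif GCGNGGGCG was in 8.41% and in the EGR1 window. The AP-1 site TGANTCA (6.57% of windows) and the HLF motif TTACNTAA (1.98%) matched no member window. Both strands were searched. The letters are a description of these windows and not of factor binding. Sites farther than 250 bases upstream of a start, or departing from the searched letters, were not looked for. A missing match therefore does not mean that a gene lacks the element. Within the windows, members called lower held a CArG box (EGR1), a MEF2 site (JUN), a CRE half-site alone (FOS) and no match (NR4A1).

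**Figure D2:**
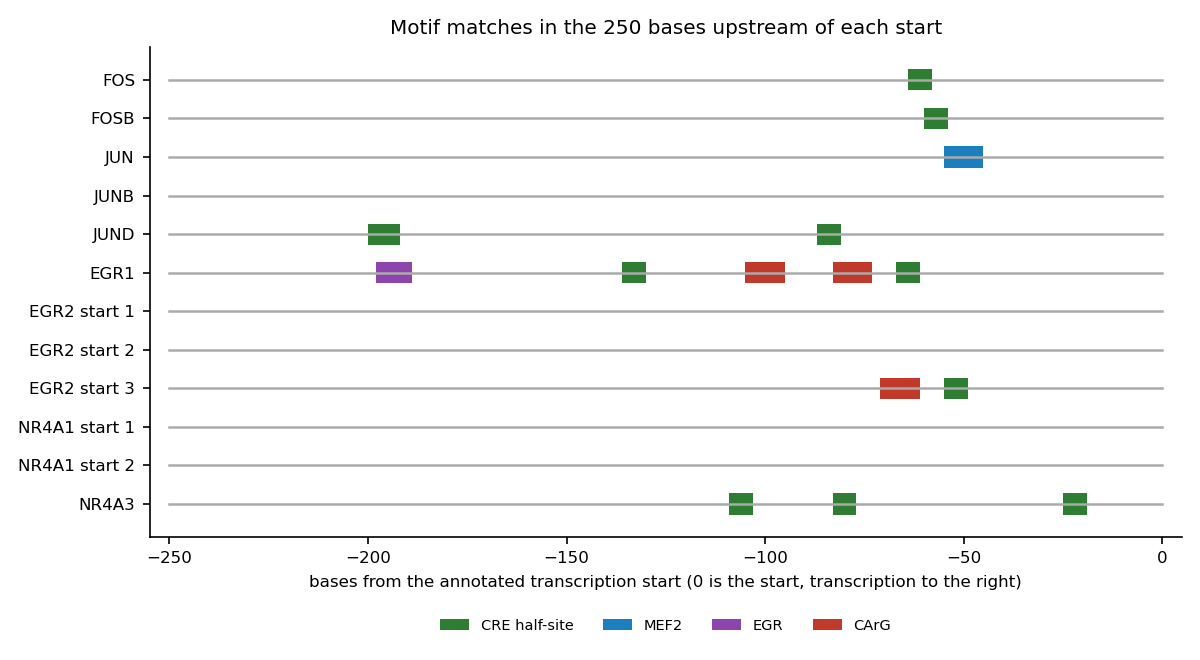
Position of motif matches in the 250 bases upstream of each annotated start of 9 members, in bases from the start. Colors mark the kind of motif. CArG boxes are seen in EGR1 and in the third start of EGR2, the MEF2 site is seen in JUN, and the windows of JUNB and NR4A1 hold no match.

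JUN encodes the founding JUN subunit of AP-1. The gene (ENSG00000177606.9) lies at chr1:58776845-58784048 on the minus strand. JUN measured 6.52, 8.67 and 5.39 CPM in SCR1 replicates 1, 3 and 4. With sgRNA_96 it measured 3.40, 3.50 and 3.85 CPM, and with sgRNA_97 it measured 3.18, 3.90 and 4.22. The control libraries spread more widely than the KO libraries, and the groups did not overlap. Mean CPM fell from 6.86 ± 1.67 (SD, n = 3) to 3.68 ± 0.381 (SD, n = 6). The log2 fold change was -0.89 (SE 0.16, adjusted p = 0.00115). The adjusted p of JUN remained below the threshold in 17 of 18 other settings and in each of the 9 fits that left out a library (adjusted p 0.00121 to 0.0102).

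JUNB and JUND encode the other JUN subunits and were the most abundant members. JUNB (ENSG00000171223.6, chr19:12791486-12793315) measured 17.3, 15.3 and 17.3 CPM in SCR1. With sgRNA_96 it measured 19.5, 12.0 and 11.7 CPM, and with sgRNA_97 it measured 12.8, 10.3 and 13.01. Of the 6 KO libraries 5 lay below every control, and sgRNA_96 replicate 1 lay above every control. The log2 fold change was -0.34 (SE 0.15, adjusted p = 0.108). It was called without sgRNA_96 replicate 1 (-0.48, adjusted p = 0.00169) and also with all libraries when genes of low count were kept in the fit (-0.35, adjusted p = 0.0123). JUNB overlaps HOOK2 on the other strand, and as the strand setting of the counting is not stated, reads from the pair may not be separable. JUND (ENSG00000130522.6, chr19:18279694-18281622, minus strand) measured 44.2, 46.4 and 54.6 CPM in SCR1 and 40.3 to 52.5 CPM in KO, with a median of 42.1. Its groups overlapped, with a log2 fold change of -0.14 (SE 0.08, adjusted p = 0.249), and without sgRNA_96 replicate 1 the value was -0.20 (adjusted p = 0.0438).

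FOS encodes the FOS subunit of AP-1, which binds DNA together with a JUN partner. The gene (ENSG00000170345.10) lies at chr14:75278826-75282230 on the plus strand. FOS measured 3.43, 5.02 and 3.54 CPM in SCR1 replicates 1, 3 and 4. With sgRNA_96 it measured 1.95, 2.87 and 3.63 CPM, and with sgRNA_97 it measured 1.99, 2.11 and 1.48. All sgRNA_97 libraries lay below the controls, whereas sgRNA_96 replicate 4 lay among them. Mean CPM fell from 3.997 ± 0.886 (SD, n = 3) to 2.34 ± 0.777 (SD, n = 6). The log2 fold change was -0.75 (SE 0.25, adjusted p = 0.0397). The call was held in 2 of the 9 fits that left out a library. Without sgRNA_96 replicate 1, any of the sgRNA_97 libraries or any of the SCR1 libraries the adjusted p was between 0.0523 and 0.177, with the highest value without SCR1 replicate 3. Tests that corrected for transcript length (edgeR) or used TPM (limma) gave adjusted p from 0.0521 to 0.165.

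FOSB, a second FOS subunit gene (ENSG00000125740.15, chr19:45467995-45475179), measured 1.60, 1.14 and 0.945 CPM in SCR1 and 0.597 to 1.198 CPM in KO, with a median of 0.806. The groups overlapped, with a log2 fold change of -0.55 (SE 0.31, adjusted p = 0.237). FOSB overlaps ERCC1 on the other strand, a gene with 11587 counts over the 9 libraries compared with 176 for FOSB, so unstranded counting could place ERCC1 reads in FOSB.

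NR4A1, known as NUR77, encodes a nuclear receptor that is widely used as a reporter of antigen receptor signaling and whose promoter is a known MEF2 target in lymphocytes. The gene (ENSG00000123358.20) lies at chr12:52022832-52059507 on the plus strand. NR4A1 measured 2.31, 3.31 and 2.74 CPM in SCR1 replicates 1, 3 and 4. With sgRNA_96 it measured 1.51, 1.75 and 1.36 CPM, and with sgRNA_97 it measured 1.39, 1.68 and 1.96. The groups did not overlap, although the lowest control and the highest KO library were close. Mean CPM fell from 2.79 ± 0.501 (SD, n = 3) to 1.61 ± 0.232 (SD, n = 6). The log2 fold change was -0.78 (SE 0.22, adjusted p = 0.0192). The adjusted p was 0.0977 without SCR1 replicate 3 and 0.0650 without SCR1 replicate 4, and it stayed below the threshold in the other 7 such fits. Counts were 21 to 68 per library and were divided by Salmon among 13 transcripts. Tests that corrected for transcript length or used TPM gave adjusted p from 0.123 to 0.322.

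The other NR4A genes did not share this pattern at this depth. NR4A2 (NURR1, ENSG00000153234.16, chr2:156324437-156342348, minus strand) was the only member with a positive estimate in the KO comparison and measured 1.49, 1.14 and 1.32 CPM in SCR1. The KO libraries ranged from 1.39 to 2.38 CPM with a median of 1.64, and 5 of 6 lay above every SCR1 library, with a log2 fold change of 0.44 (SE 0.26, adjusted p = 0.258). NR4A3 (NOR1, ENSG00000119508.18, chr9:99821855-99866891, plus strand) measured 0.509, 0.399 and 0.945 CPM in SCR1 and 0.315 to 0.895 in KO, with a median of 0.584. Its groups overlapped on 5 to 20 counts per library, with a log2 fold change of -0.11 (SE 0.43, adjusted p = 0.892). NR4A3 overlaps STX17-DT on the other strand, with 60 counts over all libraries compared with 103 for NR4A3. Unstranded counting could therefore place STX17-DT reads in NR4A3. The difference between NR4A1 and NR4A2 was not tested.

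Next, each guide was compared with SCR1 on its own. Both comparisons use the same 3 control libraries, so their values are given side by side and are not independent. With sgRNA_96, 2 of 10 members were called, both lower, against a background of 11.2% of genes tested (5.41% for lower). With sgRNA_97, 3 of 10 were called, all lower, against 15.1% (7.76% for lower). EGR1 had a log2 fold change of -1.30 (SE 0.18, adjusted p = 0.000363) with sgRNA_96 and -1.50 (SE 0.19, adjusted p = 0.000126) with sgRNA_97. JUN changed by -0.93 (SE 0.20, adjusted p = 0.00754) and -0.86 (SE 0.20, adjusted p = 0.0102). EGR1 and JUN thus passed the edgeR test with either guide. JUN kept its call in 12 of 15 other settings with sgRNA_96 and in 12 of 15 with sgRNA_97. The settings that lost it were those of limma, with adjusted p up to 0.185 (sgRNA_96) and 0.18 (sgRNA_97). FOS had -0.49 (SE 0.26, adjusted p = 0.250) with sgRNA_96 and -1.09 (SE 0.27, adjusted p = 0.0147) with sgRNA_97. The FOS value for sgRNA_97 was no longer called without sgRNA_97 replicate 4 (adjusted p = 0.0557) or SCR1 replicate 3 (adjusted p = 0.0531). NR4A1 had -0.84 (SE 0.27, adjusted p = 0.0546) and -0.72 (SE 0.27, adjusted p = 0.0828), close to each other and short of the threshold with either guide alone.

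The guides were also compared directly. No member differed between sgRNA_97 and sgRNA_96 by edgeR or by DESeq2, and 3 of the 14436 genes were called by edgeR, a background of 0.0208%. At an unadjusted p under 0.05, 1 member (FOS) and 503 genes in all were found. FOS was lower with sgRNA_97 than with sgRNA_96 by a log2 fold change of -0.61 (SE 0.28, unadjusted p = 0.0462, adjusted p = 1.00). For EGR1 the difference was -0.19 (SE 0.20), for JUN 0.07 (SE 0.21) and for NR4A1 0.12 (SE 0.28), none of which shows that the guides act alike. EGR2 and NR4A3 had the largest positive differences, 0.64 (SE 0.65) and 0.61 (SE 0.51), on the fewest counts.

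**Figure D3:**
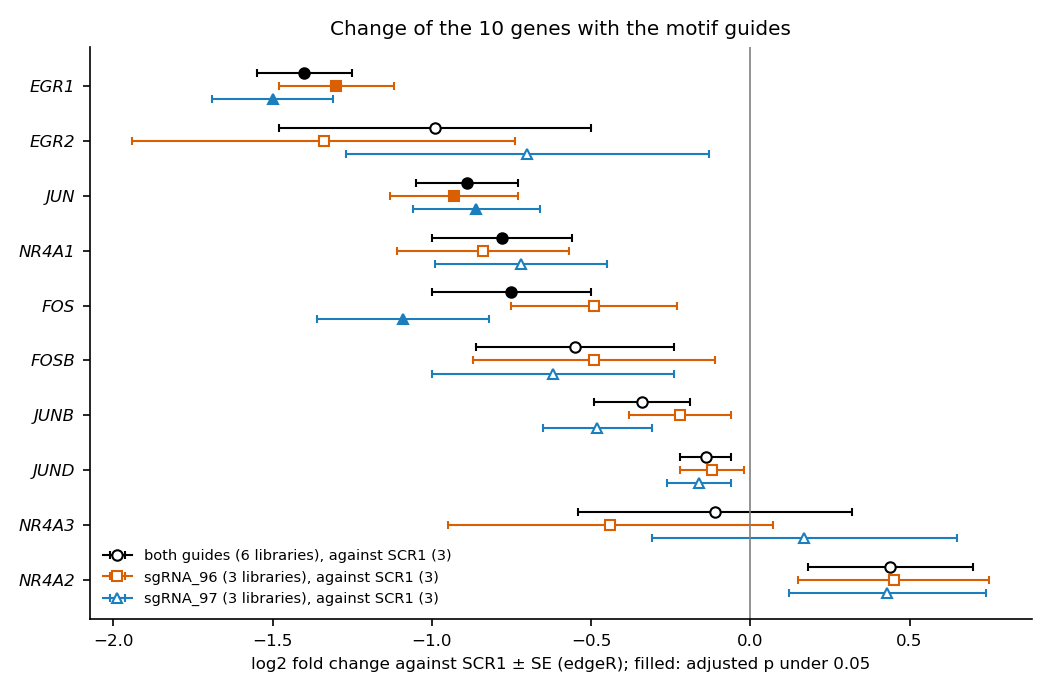
Log2 fold change of the 10 genes against SCR1 with both guides together (6 libraries, black circles), sgRNA_96 (3, orange squares) and sgRNA_97 (3, blue triangles), with SE as bars and filled symbols for adjusted p under 0.05 (edgeR). EGR1 and JUN are filled in all 3 comparisons, FOS is filled for both guides together and for sgRNA_97, and NR4A1 is filled only for both guides together. The 3 comparisons share the same control libraries.

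Levels of different genes were compared as TPM, which accounts for transcript length. In SCR1 the order was JUND (35.3 ± 3.80), JUNB (12.9 ± 0.684), EGR1 (3.33 ± 0.156), JUN (2.96 ± 0.652), FOS (2.88 ± 0.530), NR4A1 (2.18 ± 0.773), NR4A2 (0.594 ± 0.0817), EGR2 (0.462 ± 0.226), FOSB (0.439 ± 0.114) and NR4A3 (0.159 ± 0.0782), each as TPM with SD over 3 libraries. Neighbors from EGR1 to NR4A1 overlapped in their SCR1 libraries, as did NR4A2, EGR2 and FOSB. JUND, JUNB, the group from EGR1 to NR4A1 and the group below it did not overlap. The lowest gene, NR4A3 (at most 0.249), was apart from its neighbor FOSB (at least 0.337) but overlapped EGR2 (at least 0.238). In KO the mean TPM of EGR1 was 1.27 ± 0.228 and that of JUN 1.62 ± 0.166 (SD, n = 6). The isoform split within JUN, NR4A3, EGR2 and FOSB switched between libraries of the same group, and isoforms are not interpreted.

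AP-1 is built from whichever subunits are present, and the JUN and FOS families in these cells were made up mainly of JUND and FOSL2 RNA. JUND made up 68.9 ± 2.51% of the summed TPM of JUN, JUNB and JUND in SCR1 and 73.2 ± 2.46% in KO. JUN made up 5.80, 7.32 and 4.39% in SCR1 and 2.93 to 4.203% in KO, without overlap between the groups. In the FOS family, FOSL2, which is not one of the 10 genes, made up 89.1 ± 1.22% in SCR1 and 91.7 ± 1.70% in KO. FOS made up 5.62, 7.72 and 6.30% in SCR1 and 2.52 to 6.67% in KO, with sgRNA_96 replicate 4 (6.67%) among the controls. These shares are a description of RNA and were not tested.

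**Figure D4:**
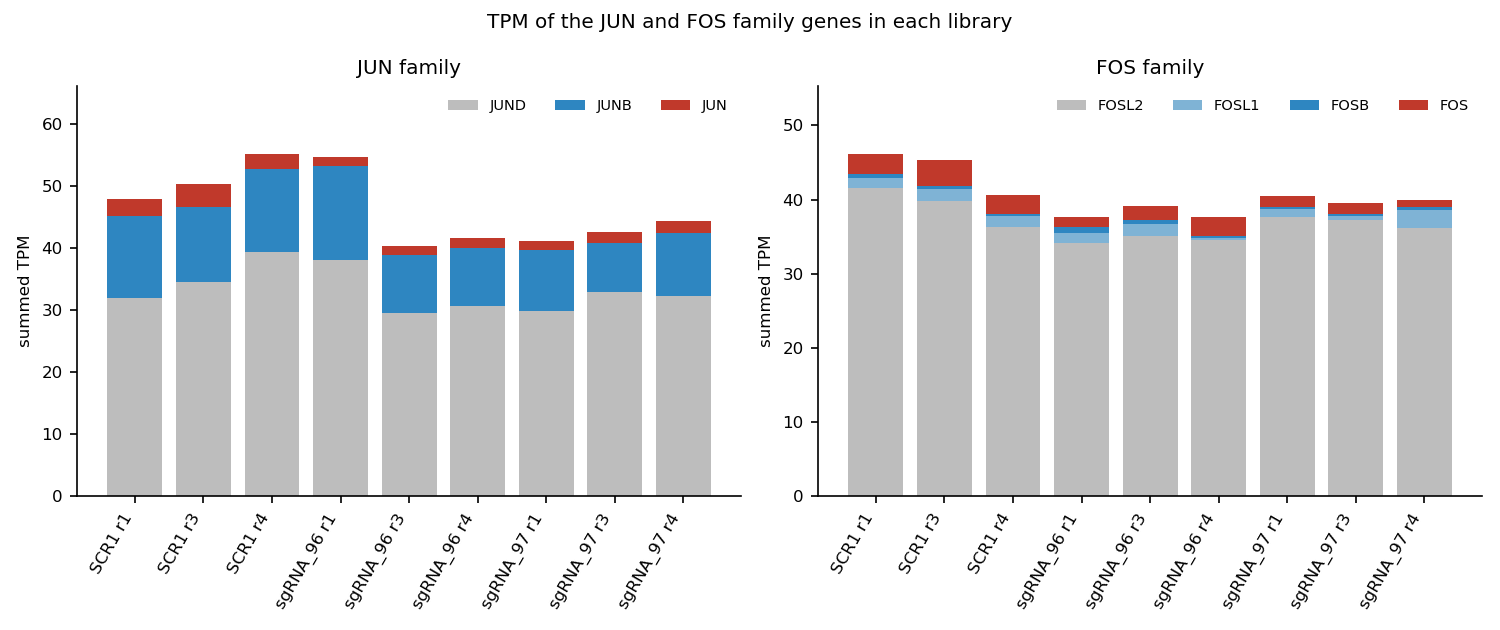
Summed TPM of the JUN family (left) and the FOS family (right) in each library, with stacked bars from 0 colored by gene. JUND and FOSL2 fill most of each bar, and JUN forms 4.39 to 7.32% of the JUN family bar in SCR1 and 2.93 to 4.203% in KO.

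Around the 10 members, lists of pathway genes were described by their counts. The background for every list is that of all genes tested, of which 20.7% were called and 10.6% were called lower. Among 10 tested AP-1 subunits and partners 2 fell and none rose in edgeR (median log2 fold change -0.14). ATF3, a stress-induced partner of JUN, fell from 11.8 ± 1.58 to 8.41 ± 0.914 CPM (log2 fold change -0.49, adjusted p = 0.00703). FOSL2 had a log2 fold change of -0.14 (adjusted p = 0.0489) and also fell. By guide, FOSL2 was called with sgRNA_96 (-0.21, adjusted p = 0.0156, edgeR) and not with sgRNA_97 (-0.08, adjusted p = 0.307). Neither tested EGR corepressor passed, with -0.39 for NAB2 (adjusted p = 0.0706), itself an EGR target, and 0.16 for NAB1 (adjusted p = 0.107).

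Among 16 factors that bind or drive early promoters 4 rose and 2 fell (median 0.02). SRF, the CArG box factor, fell from 85.4 ± 3.85 to 72.8 ± 4.86 CPM (log2 fold change -0.23, adjusted p = 0.00873). By guide, SRF was called with sgRNA_97 (edgeR, adjusted p = 0.00853) and not with sgRNA_96 (adjusted p = 0.0775). Its actin-regulated coactivator MRTFA fell from 107 ± 4.23 to 86.3 ± 5.01 CPM (-0.31, adjusted p = 0.000729). ELK3, a ternary complex factor that can repress SRF targets, rose from 70.9 ± 3.32 to 121 ± 5.60 CPM (0.77, adjusted p = 1.09e-07). ELK4 (0.21), MEF2A (0.18) and the CREB coactivator CRTC3 (0.18) also rose. MEF2A was called with sgRNA_96 (edgeR, adjusted p = 0.0377) and not with sgRNA_97 (adjusted p = 0.0807). CRTC3 was called with neither guide alone (edgeR, adjusted p = 0.0627 with sgRNA_96 and 0.148 with sgRNA_97). MEF2C itself, whose enhancer carries the edited motif, measured 552 ± 13.4 CPM in SCR1 and 509 ± 22.1 in KO (-0.12, SE 0.04, adjusted p = 0.0620). Of the 6 KO libraries 5 lay below every SCR1 library for MEF2C. The study itself, which tested with DESeq2 and not with edgeR, reported MEF2C as significantly lower in its RNA-seq of this KO. It also reported lower MEF2C RNA and protein after disruption of the motif. Of 19 tested upstream kinases, calcineurin subunits and NFAT factors 1 rose, the ERK-activated kinase gene RPS6KA3 (0.27, adjusted p = 0.00320), and none fell.

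Other immediate early response genes moved in both directions, with 6 higher and 5 lower of 25 tested (median -0.09). The MAP kinase phosphatase DUSP1 fell from 84.2 ± 5.18 to 57.0 ± 3.74 CPM (log2 fold change -0.56) and DUSP2 by 0.47 on the log2 scale. The lymphocyte activation marker CD69 fell from 1.45 ± 0.473 to 0.590 ± 0.354 CPM (-1.28, adjusted p = 0.0443), on 3 to 45 counts per library. CD69 was called with neither guide alone (edgeR, adjusted p = 0.163 with sgRNA_96 and 0.0976 with sgRNA_97). ZFP36L1 (-0.25) and PPP1R15A (-0.27) fell as well. PPP1R15A was called with sgRNA_97 (edgeR, adjusted p = 0.0182) and not with sgRNA_96 (adjusted p = 0.0681). The antiproliferative gene BTG2 rose from 58.0 ± 3.14 to 80.5 ± 2.71 CPM (0.47), and CCN2 (0.57), TNFAIP3 (0.40), KLF10 (0.38), CSRNP1 (0.37) and ZFP36L2 (0.25) rose. Of these, KLF10 was called with sgRNA_97 (edgeR, adjusted p = 0.0432) and not with sgRNA_96 (adjusted p = 0.199). IER2, an early gene that also responds to serum, measured 58.8 ± 1.69 and 60.3 ± 5.00 CPM (0.04, adjusted p = 0.747). Neither tested NR4A partner passed (RXRA -0.17, RXRB 0.00).

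Heat shock genes, which respond to culture and handling stress, were mostly lower in KO. Of 8 heat shock genes 7 fell (median -0.33), and their summed CPM was 4816 to 5117 in SCR1 and 3516 to 4342 in KO, without overlap. HSPA1B fell from 36.9 ± 2.84 to 26.4 ± 3.56 CPM (-0.49, adjusted p = 0.00184). HSPA1B has a near-identical copy, HSPA1A, so the division of reads between them is uncertain. The part of the heat shock genes in the values of EGR1, JUN, FOS and NR4A1 was not tested.

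**Figure D5:**
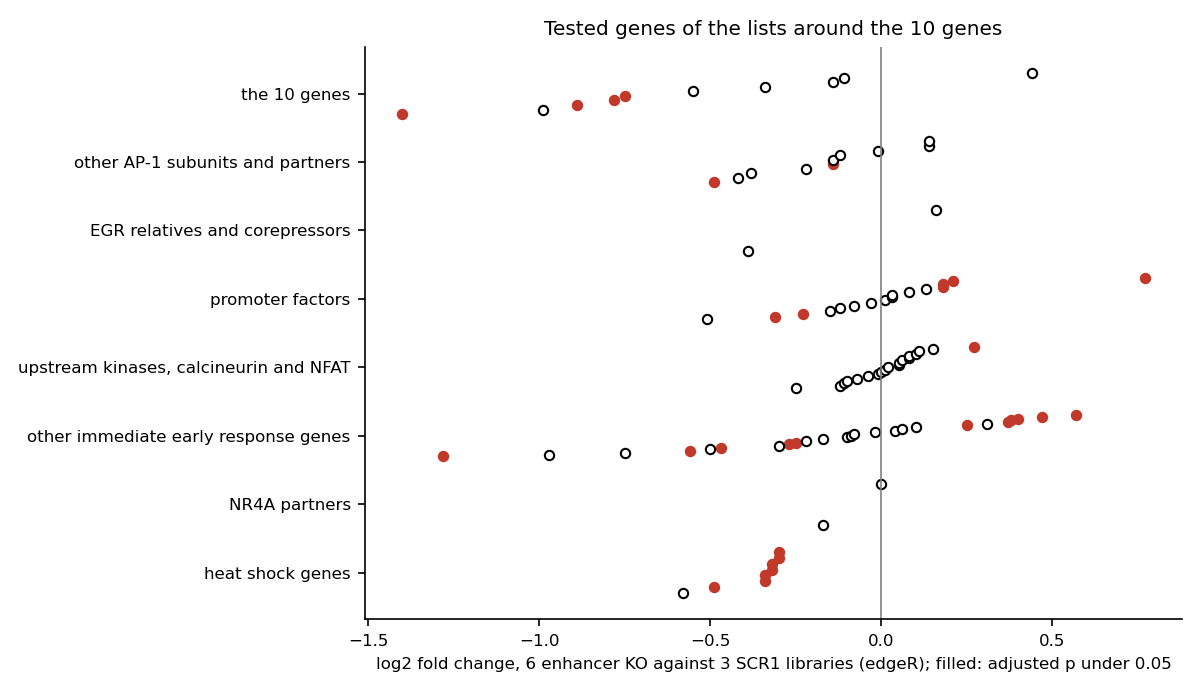
Log2 fold change (6 KO against 3 SCR1 libraries, edgeR) of each tested gene of the 10 members and of 7 lists, with filled points for adjusted p under 0.05. Most members lie left of 0, all 8 heat shock genes lie between -0.58 and -0.30, and the other immediate early genes spread to both sides.

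Within groups, the members did not vary as a block. Averaged over the 10 genes, the deviation of a library from its group mean on the log2 scale ranged from -0.12 (sgRNA_97 replicate 1) to 0.06. Over the 9 libraries the deviations of FOS and JUNB ran opposite (r = -0.85), and those of JUNB and JUND together (r = 0.66), a description of libraries in which sgRNA_96 replicate 1 was high for JUNB and JUND and low for FOS. Of the 10675 other genes with a mean of at least 5 CPM, those whose deviations were most like the mean of the members were MEGF6 (r = 0.988), TAFAZZIN (0.984), PGM2L1 (0.978), GBAP1 (0.975) and PRPF40B (0.970). These are the highest values of that many genes over 9 libraries and are given as a description. Each r uses the depth and composition of the same libraries, and deviations from group means hold no difference between groups. In KO against SCR1, MEGF6 (log2 fold change 1.14, adjusted p = 6.51e-05, edgeR) and PRPF40B (0.34, adjusted p = 0.0265) rose, unlike the members called. TAFAZZIN, PGM2L1 and GBAP1 were not called.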

How the data were processed

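RNA from 9 libraries of HAL-01 cells was analysed. Per the labels and the study's methods, the authors made TruSeq mRNA libraries, aligned reads with STAR to GRCh38 and quantified transcripts with Salmon 1.10.1. They deposited estimated transcript counts (not normalized) and TPM, both from Salmon, the latter scaled by effective length. Salmon divides shared reads among transcripts by likelihood, and neither strand use nor the annotation release is given in the sources used here. Identifiers matched GENCODE 44. Here, the deposited estimated counts of each gene were added up, rounded, filtered by filterByExpr (minimum count 10), scaled by TMM and tested by edgeR 4.0.16 (quasi-likelihood, R 4.3.3), adjusted by Benjamini-Hochberg over all 14436 genes, threshold 0.05. Each guide and the direct comparison came from a 3-group fit. Alternatives were DESeq2 1.42.0, other scaling, no filter, a length offset, limma 3.58.1 on log2(TPM + 0.1) or log2(TPM + 1), a replicate block and leaving out libraries. Tests were checked on simulated data. All members were named whatever their values. The members and lists were chosen with earlier results of these data known. No column was without a sample.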

Additional observations from a re-analysis of the deposited data

Results flagged for a closer look

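JUNB in sgRNA_96 replicate 1 measured 19.54 CPM, far from the other 5 KO libraries, which lay between 10.3 and 13.01 CPM. Its distance to the nearest library divided by the range of all 6 was 0.709, and the critical value of Dixon's test is 0.625. The KO values of 10 genes were checked, for which chance alone gives about 0.5 such values. The same library had an extreme score on the second principal component. Its part in other results is given with each gene.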

How the results depend on the processing

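In the KO comparison EGR1 held its call under all 18 other settings and JUN under 17 of them. FOS and NR4A1 had 21 to 101 counts per library, JUNB and JUND 193 to 1302. With 4 members called in KO, 5 were called with no filter in edgeR (JUNB added, 3199 genes), 2 were called with the gene length offset, 2 with limma on log2(TPM + 0.1), 2 on log2(TPM + 1), 1 on log2(TPM + 1) with no filter (EGR1), and 2 to 5 on leaving out 1 library. For sgRNA_96 (2 called) limma gave 1, 1 and 0 in the same order (in the last, 0 by limma with EGR1 at an adjusted p of 0.0513), and for sgRNA_97 (3 called) limma with no filter gave 1 and edgeR with no filter 4 (JUNB added). Leaving out 1 library gave 2 to 3 members for either guide and 0 between guides. Genes called in KO (2984) were 1524, 1246, 1240 and 649 under the length offset and the limma settings, and 1503 to 3547 on leaving out 1 library, lowest without SCR1 replicate 1 and 1813 without SCR1 replicate 4. For sgRNA_96 (1615) they were 662, 451, 448 and 202, and 743 (without sgRNA_96 replicate 3) to 1989, with 774 and 916 without SCR1 replicates 1 and 4. For sgRNA_97 (2181) they were 924, 706, 706 and 311, and 987 (without SCR1 replicate 1) to 1791, with 1056 without sgRNA_97 replicate 3 and 1243 without SCR1 replicate 4. The limma settings test TPM in place of counts, and the cause of the lower numbers was not tested. Without sgRNA_96 replicate 1 and sgRNA_97 replicate 1 together, chosen after seeing the data, 4 members were called (EGR1, JUN, JUNB and NR4A1) with 3394 genes.

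Signs turned for uncalled values of members. In KO, NR4A3 was 0.01 without sgRNA_96 replicate 1, 0.02 without sgRNA_96 replicate 3, 0.32 without SCR1 replicate 4 (range on leaving out 1 library -0.32 to 0.32) and 0.09 without both replicates 1 of the guides. With sgRNA_96, FOSB was 0.21 with the length offset, 0.15 with log2(TPM + 0.1), 0.08 with log2(TPM + 1) and 0.08 with log2(TPM + 1) and no filter. With sgRNA_97, NR4A3 was -0.06 without sgRNA_97 replicate 3 and -0.04 without SCR1 replicate 3 (range -0.06 to 0.59). Between guides, without sgRNA_96 replicate 1, FOSB was 0.12 (range -0.35 to 0.12), JUNB 0.02 (-0.38 to 0.02) and JUND 0.09 (-0.11 to 0.09). Without sgRNA_97 replicate 4, JUN was -0.02 (-0.02 to 0.17), NR4A1 -0.0024 and NR4A2 0.08 (-0.18 to 0.24), and NR4A2 was 0.24 without sgRNA_96 replicate 3 and 0.03 without sgRNA_97 replicate 1. Of the log2 fold changes of single members under alternatives, 585 kept direction and call, 29 lost the call, 7 gained it and 18 turned sign. EGR2 was not tested in KO without sgRNA_96 replicate 3, where it did not pass the filter.

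Replicate numbers were shared between groups, but deviations of same-numbered libraries correlated only between -0.084 and 0.065, so the numbers were not taken to pair the samples. With the replicate block 4 members and 2936 genes were called in KO, 2 and 1576 with sgRNA_96, and 4 and 2082 with sgRNA_97, where JUNB was added.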
